A study of Danio rerio with 19 samples.

Results

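The 6256 genomic regions described here carried an H3K9me3 peak in zebrafish brain at every age examined, 4 months (4 M), 12 months (12 M) and 20 months (20 M). They were chosen by the peak calls themselves. The peaks of all 6 lists, 1 list per group, were merged into 90523 regions wherever they overlapped by 1 bp or more. A region was kept when it lay on chromosomes 1 to 25, leaving out chromosome 4 from 25 Mb onwards, when none of its peaks reached 500 bp, and when it overlapped a peak in each of 5 lists (4 M ZT4, 4 M ZT16, 12 M ZT16, 20 M ZT4 and 20 M ZT16). A peak in the list of 12 M ZT4, which held 29 peaks, was not required, though its peaks took part in the merging and the length limit. The chromosome and length conditions left 80950 regions, of which the 6256 were 7.73%. Together they covered 1.34 Mb.

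All fish were wild-type zebrafish of the SAT strain, entrained to a 12:12 light:dark cycle for a week, and brain tissue was taken 4 h (ZT4) or 16 h (ZT16) after lights on at 4 M, 12 M or 20 M. Each of these 6 groups had 3 libraries made with an antibody against H3K9me3 (from abcam), 18 in all, and 1 further library was made with a GFP antibody. The sex of the fish and the number of brains per library are not given in the sources used here. For sequencing, the methods name Duke, while the labels name Duke or Genewiz without assigning libraries to either. The authors deposited 1 peak list per group, called on the triplicate together, so the lists hold no value per library, no read depth and no spread between replicates, and no test between groups was possible. The brain label could not be checked against marker genes, since peak lists hold no expression values.

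H3K9me3, trimethylation of histone H3 at lysine 9, is laid down by methyltransferases of the SUV39H and SETDB1 families and is bound by HP1 proteins, which compact chromatin. It is best known from constitutive heterochromatin around centromeres and telomeres and from silenced transposons and other repeats. In differentiated tissues it also lies at shorter stretches along the chromosome arms. A nucleosome, the unit that carries the mark, wraps a length of DNA of the same order as the peaks described below.

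Most of the regions held a single peak per list. Over all 6 lists, 6118 of the 6256 held exactly 5 peaks and 138 held more. At 126 regions a list held 2 or more peaks. The lists differed greatly in how much of their content these regions took up. Of the 12 M ZT16 peaks that met the chromosome and length conditions, 95.5% lay in them (6280 of 6578, Wilson 95% interval 94.9 to 95.9). The share was 38.8% in 20 M ZT4 (6283 of 16185), 12.3% in 4 M ZT16 (6271 of 51003), 9.94% in 4 M ZT4 (6275 of 63158) and 7.95% in 20 M ZT16 (6333 of 79677). Presence in the 12 M ZT16 list, the shortest of the 5, therefore came close to fixing the choice. A further 9666 regions were listed in both 4 M and both 20 M lists but not in 12 M ZT16. These are the nearest comparison set and are called the regions missing at 12 M below.

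The regions were longer than the rest, and length is one of the measures that moved with being listed, so it is given as a description. Their median length was 178 bp (quartiles 112 and 295 bp, range 66 to 572 bp). The median was 72 bp over the other regions on the same chromosomes and 92 bp over the regions missing at 12 M. The share of regions that were marked at every age was 1.44% among regions under 100 bp, 22.3% from 100 to 149 bp, 19.8% from 150 to 249 bp, 34.2% from 250 to 399 bp and 53.3% at 400 bp and over. Regions under 100 bp were thus most of the regions by number (59892 of 80950) and a small part of those found at every age (865 of 6256).

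**Figure D1:**
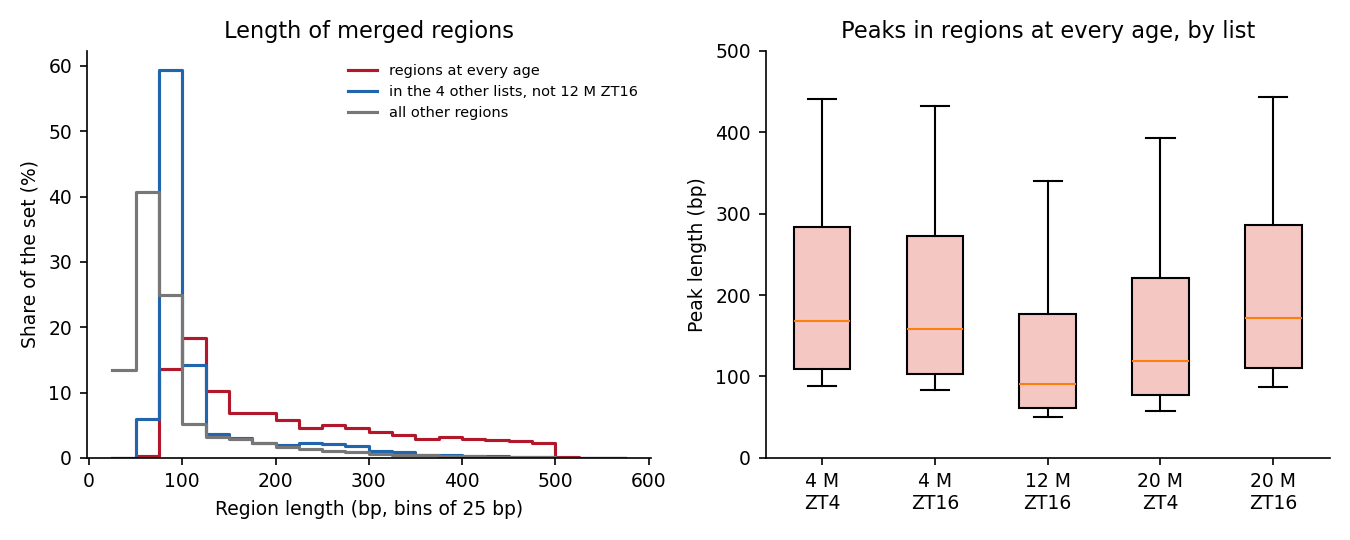
The left panel plots the share of each set (in %) in bins of 25 bp of region length, for the 6256 regions marked at every age, the 9666 regions missing at 12 M, and all regions not marked at every age (these 9666 included). The right panel shows the length in bp of the best-scoring peak in each of the 5 lists at the 6256 regions (box, quartiles with the median as a line, whiskers at the 5th and 95th percentiles), where the 12 M ZT16 median of 91 bp is the lowest.

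The same place gave a peak of a different length in each list. The median length of the best-scoring peak at these regions was 168 bp in 4 M ZT4, 158 bp in 4 M ZT16, 91 bp in 12 M ZT16, 119 bp in 20 M ZT4 and 172 bp in 20 M ZT16. The 12 M ZT16 peak was the shortest of the 5 at 5591 regions, and the 20 M ZT4 peak at 532. The 12 M ZT16 list also held the fewest peaks of the 5 (6578 under the same conditions). Over all of them its median length was 89 bp, the highest of the 5 lists. The others had 72 bp in 4 M ZT4, 69 bp in 4 M ZT16, 70 bp in 20 M ZT4 and 72 bp in 20 M ZT16. The part of depth in the shorter 12 M ZT16 peaks at the regions marked at every age was not tested. The longest peak was that of 20 M ZT16 at 2862 regions and that of 4 M ZT4 at 2629. Measured region by region, the 12 M ZT16 peak had a median of 63.4% of the length of the 20 M ZT16 peak (quartiles 52.2% and 75.7%). The peaks were nested around nearly the same centre. Their best-scoring peaks shared at least 1 base in all 5 lists at 6239 regions, the median shared stretch was 88 bp or 60.2% of the region, and the median distance between the centres of the 20 M ZT16 peak and the peak of another list was 1.5 bp in 4 M ZT4, 2 bp in 4 M ZT16, 5 bp in 20 M ZT4 and 7 bp in 12 M ZT16.

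Between the times of day, the order of peak lengths was opposite at the youngest and the oldest age. At 4 M, the ZT4 peak was the longer one at 5817 of the 6256 regions (93.0%) and the ZT16 peak at 263. At 20 M, the ZT16 peak was the longer one at 6218 regions (99.4%) and the ZT4 peak at 38. The step was small at 4 M, where the ZT16 peak had a median of 96.6% of the length of the ZT4 peak, and larger at 20 M, where the ZT4 peak had a median of 78.6% of the length of the ZT16 peak. The regions missing at 12 M gave nearly the same shares, 92.9% at 4 M and 99.2% at 20 M, so the order was not particular to the regions marked at every age. Each direction is that of 1 list against 1 list. Within each age it was also the direction of the number of peaks listed, and whether depth or enrichment played a part was not tested.

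The score that the peak caller gave each peak was used only for its rank within its own list. The percentile is the share of the list's peaks on the same chromosomes and under the same length limit that scored lower, with ties counted evenly below and above. The regions ranked near the top of the 3 long lists. The median percentile was 93.9 in 4 M ZT4 (quartiles 82.5 and 97.5), 91.7 in 4 M ZT16 (78.5 and 96.6) and 95.3 in 20 M ZT16 (86.6 and 98.0). It was 60.5 in 20 M ZT4 (33.5 and 82.0) and 49.6 in 12 M ZT16 (28.0 and 73.5). In the 12 M ZT16 list, where these regions held nearly every peak, a median close to the middle follows from the counting. In 20 M ZT4, where they held 38.8% of the peaks, the counting also limits how high the median could be. The regions missing at 12 M ranked lower in all 4 lists that held them, with medians of 77.2 in 4 M ZT4, 70.7 in 4 M ZT16, 43.9 in 20 M ZT4 and 82.8 in 20 M ZT16. No test was made of these differences, since listing and score come from the same peak calls.

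**Figure D2:**
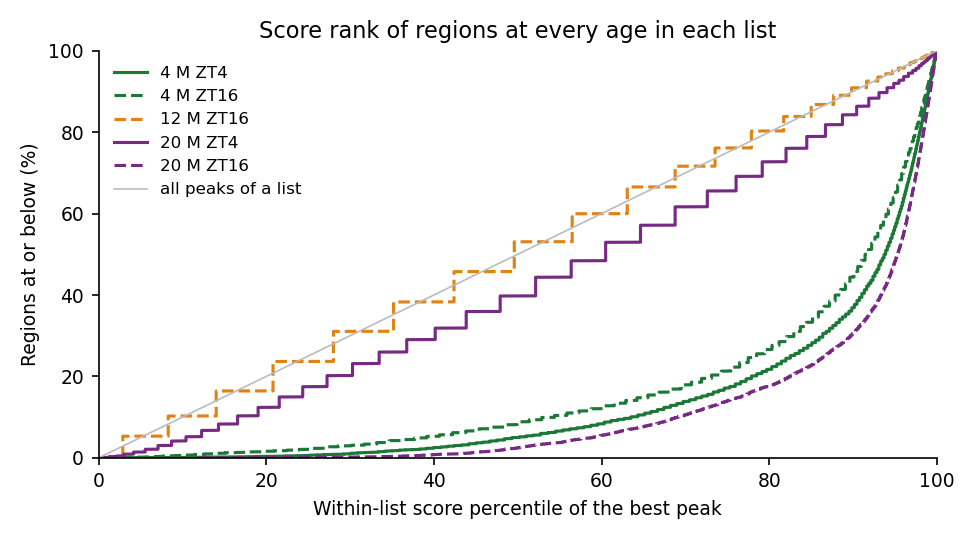
The cumulative share of the 6256 regions (in %, vertical axis) is plotted against the within-list score percentile of the best peak (horizontal axis) for each of the 5 lists, and the grey diagonal is what all peaks of a list give. The curves of 4 M ZT4, 4 M ZT16 and 20 M ZT16 stay low until high percentiles (medians 93.9, 91.7 and 95.3), and that of 12 M ZT16 follows the diagonal in steps because many of its peaks share a score.

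At these regions the score ran from 10 to 67 in 12 M ZT16 with a median of 17, from 12 to 95 in 20 M ZT4 with a median of 37, from 19 to 189 in 4 M ZT16 with a median of 115.5, from 37 to 304 in 4 M ZT4 with a median of 190, and from 33 to 539 in 20 M ZT16 with a median of 349.5. These values were used within each list and were not compared between lists. A score under 20 was given to 4162 of the regions (66.5%) in 12 M ZT16, beside 66.3% of all peaks of that list under the same conditions, so the count is that of the list and not particular to these regions. It was given to 189 (3.02%) in 20 M ZT4, beside 7.86% of that list, and to 1 in 4 M ZT16, beside 0.72% of that list. None of the regions had such a score in 4 M ZT4 or 20 M ZT16, beside 1.97% and 7.41% of all peaks of those lists. Requiring a score of at least 20 in every list left 2086 regions, and a score of at least 30 left 343.

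Rank was shared between some lists and hardly between others. Across the 6256 regions, Spearman's rho of the percentiles was 0.90 between 4 M ZT4 and 20 M ZT16, 0.87 between the 2 lists of 4 M and 0.84 between 4 M ZT16 and 20 M ZT16. It was 0.42 between 12 M ZT16 and 20 M ZT4, and 0.39 between the 2 lists of 20 M. It was lowest between 12 M ZT16 and 20 M ZT16, at 0.09, and between 12 M ZT16 and 4 M ZT4, at 0.18. Many peaks of 12 M ZT16 shared a score. In 20 M ZT16 and 4 M ZT4, 69.5% and 63.1% of the regions lay in the top 10%. The part of shared scores and of this narrow range in the low values was not tested. Peak length was more alike, with rho from 0.81 to 0.98 over the 10 pairs of lists. These values describe one set of regions chosen by the same peak calls, and the regions are not independent points.

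Few regions ranked high everywhere, and this follows in part from the counting. These regions held nearly every peak of the 12 M ZT16 list, so their percentiles there had to spread over the whole range. In that list alone, the top 50% held 2936 of them (46.9%) and the top 10% held 570 (9.11%). The counts over all 5 lists could not exceed these. The top 50% of all 5 lists held 2123 regions (33.9%), the top 10% of all 5 lists held 197 (3.15%) and the bottom 50% of all 5 held 104. The top 10% of both 4 M lists and of 20 M ZT16 held 3085 regions (49.3%), of which 1492 were in the bottom 50% of 12 M ZT16 and 701 in the bottom 50% of 20 M ZT4. The lowest of the 5 percentiles fell in the 12 M ZT16 list at 3541 regions and in the 20 M ZT4 list at 2227. The first of these counts is also shaped by the spread over the whole 12 M ZT16 list. The second is shaped in the same way to a lesser degree, since the regions held 38.8% of the 20 M ZT4 peaks. The median of a region's lowest percentile was 36.8 and the median of its highest was 96.4.

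The 10 regions with the highest value of their lowest percentile were at or above percentile 97.8 of all 5 lists. The first was chr11:9376932-9377197 (GRCz10, as are all positions here, counted from 1), 266 bp long. Its percentile was 99.89 in 4 M ZT4, 99.97 in 4 M ZT16, 99.15 in 12 M ZT16, 99.43 in 20 M ZT4 and 99.19 in 20 M ZT16. It thus belonged to the top 1% of each list, although its peak ranged from 200 bp in 12 M ZT16 to 266 bp in 4 M ZT4. The next were chr23:5246179-5246359 and chr6:18577284-18577542, whose lowest percentiles were both 98.5. The others were chr5:862702-862948, chr17:16007721-16007860, chr19:45725352-45725549, chr18:47945057-47945241, chr24:29876101-29876325, chr21:1410082-1410298 and chr12:1519328-1519478, which were 140 to 247 bp long. All 10 were between 140 and 266 bp long, and they lay on 10 different chromosomes.

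At the other end, 5 regions ranked low in every list that listed them. The region chr18:49284844-49285010 had percentiles of 15.5 in 4 M ZT4, 2.13 in 4 M ZT16, 20.8 in 12 M ZT16, 1.27 in 20 M ZT4 and 15.7 in 20 M ZT16. The highest percentile was 23.7 at chr4:16625652-16625949, 23.9 at chr3:5764784-5765006, 23.9 at chr7:50023422-50023508 and 27.0 at chr1:36631108-36631374. These regions were called in 5 lists while close to the bottom of each, so a place in every list did not require a high score in any.

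The 5 regions with the widest range of percentile all had their low value in the 12 M ZT16 list, at a score of 10, the lowest in that list. At chr7:13574600-13574929 the percentile was 99.5 in 4 M ZT4, 98.2 in 4 M ZT16, 2.88 in 12 M ZT16, 60.5 in 20 M ZT4 and 99.7 in 20 M ZT16. The peak was 323, 317, 126, 288 and 330 bp long in the same order of lists. The remaining regions of this kind were chr21:8056920-8057148, chr14:18745125-18745334, chr7:7676468-7676649 and chr6:58159661-58159813, which reached percentile 98.8 to 99.3 in 20 M ZT16 against 2.88 in 12 M ZT16. The 20 M ZT16 list gave the highest value at 4 of the 5, and the 4 M ZT4 list at chr7:7676468-7676649.

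Place along the chromosome was not part of the choice beyond the chromosomes used, and here the regions stood apart. Each chromosome was divided into 10 equal bins from its first base to the end of its last peak, since chromosome lengths are not in the lists, and chromosome 4 was left out because it is used in part. Of all regions on these 24 chromosomes, 23.2% lay in the first or last bin (18526 of 79685). Of the regions marked at every age, 32.9% did (2026 of 6154, Wilson 95% interval 31.8 to 34.1). The regions missing at 12 M gave 21.7% (2064 of 9519, 20.9 to 22.5), and the intervals did not overlap. This comparison takes no account of length. Most regions missing at 12 M were under 100 bp (6214 of 9519), against 843 of the 6154 marked at every age. The intervals cover counting error only and are too narrow where neighbouring regions depend on each other.

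The bins showed the same gradient from both sides. The first bin held 15.6% of the regions marked at every age and the last bin 17.3%, while the fifth held 5.30% and the sixth 5.74%. All regions together were spread more evenly, from 8.01% in the fifth bin to 11.7% in the last. On 22 of the 24 chromosomes, a larger share of the regions marked at every age than of the others lay in the end bins. Chromosomes 8 (21.5% against 23.8%) and 13 (24.91% against 24.97%) had the reverse order. On 18 chromosomes both end bins exceeded the middle 8 bins in the share of regions that were marked at every age, and on the other 6 a single end did, the first bin on 3 and the last bin on 3.

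**Figure D3:**
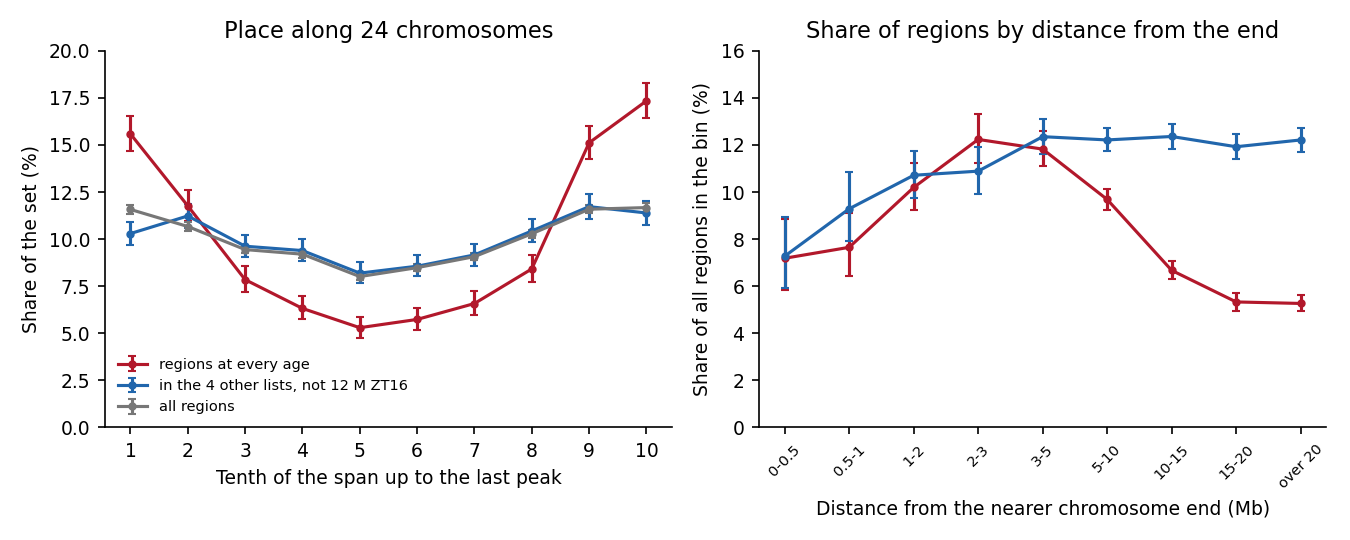
The left panel plots the share of each set (in %) in each of 10 equal bins along 24 chromosomes, and the right panel the share of all regions (in %) that belonged to each set by distance in Mb from the nearer chromosome end, with Wilson 95% intervals as bars in both. Red is the regions marked at every age, which make up 12.2% of the regions 2 to 3 Mb from an end and 5.27% beyond 20 Mb, and blue is the regions missing in 12 M ZT16, which stay between 11.9% and 12.4% beyond 3 Mb.

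Measured in distance, the highest share was not at the very end. Within 0.5 Mb of the nearer end, 7.19% of all regions were marked at every age (82 of 1141, Wilson 95% interval 5.83 to 8.83). The share was 7.65% from 0.5 to 1 Mb, 10.2% from 1 to 2 Mb, 12.2% from 2 to 3 Mb (11.2 to 13.3) and 11.8% from 3 to 5 Mb. It then declined to 9.68% from 5 to 10 Mb, 6.67% from 10 to 15 Mb, 5.33% from 15 to 20 Mb and 5.27% beyond 20 Mb (4.94 to 5.62). The share of regions missing at 12 M also increased from the end inwards, from 7.27% within 0.5 Mb to 12.4% from 3 to 5 Mb, but it stayed between 11.9% and 12.4% from there on. The intervals of the 2 sets overlapped in every distance class up to 5 Mb and in none beyond.

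Length and place went together. The median length of regions marked at every age was 234.5 bp in the end bins and 151 bp in the middle 8 bins, and it declined from 250 bp between 1 and 2 Mb from an end to 121 bp beyond 20 Mb. The median over all regions moved from 81 to 73 bp over the same distances. The score percentiles moved little, with a median of 95.3 in the end bins and 93.1 in the middle in 4 M ZT4, 96.4 and 94.7 in 20 M ZT16, and 49.6 in both in 12 M ZT16.

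Since longer regions lay nearer the ends in every set, the place was compared again within classes of length. Under 100 bp, 17.0% of the regions marked at every age lay in the end bins (14.6 to 19.6), below the 20.3% of other regions of that length (20.0 to 20.6). From 100 to 149 bp the shares were 23.0% (21.07 to 25.01) and 27.5% (26.4 to 28.6). From 150 bp upwards the order turned. It was 35.8% (33.4 to 38.2) against 30.6% (29.5 to 31.8) from 150 to 249 bp, 44.8% (42.3 to 47.4) against 35.2% (33.4 to 37.0) from 250 to 399 bp, and 47.6% (43.8 to 51.5) against 37.4% (33.5 to 41.5) at 400 bp and over. The intervals did not overlap in any of the 5 classes, and the surplus at the chromosome ends was found in the regions of 150 bp and more. Among the regions missing at 12 M, 17.7% lay in the end bins under 100 bp (16.8 to 18.7) and 25.1% from 100 to 149 bp (23.1 to 27.3). From 150 to 249 bp the share was 29.0% (26.1 to 32.0). Those of 250 to 399 bp had 37.7% (34.0 to 41.5), and the 78 regions of 400 bp and over had 50.0% (39.2 to 60.8). The intervals of this set and the regions marked at every age overlapped under 150 bp and at 400 bp and over. They did not overlap from 150 to 399 bp.

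**Figure D4:**
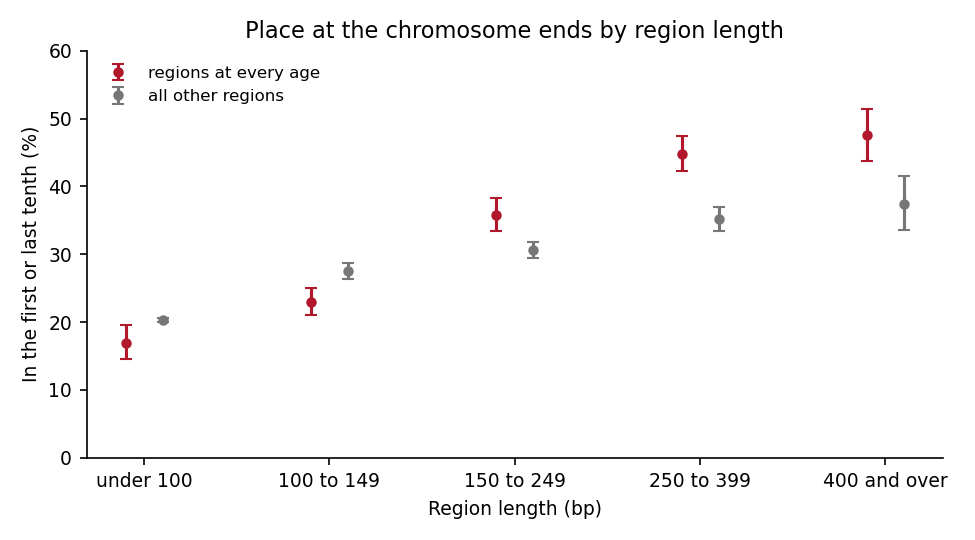
The share of regions (in %) in the first or last of 10 equal bins along 24 chromosomes is plotted by class of region length in bp, with Wilson 95% intervals as bars, for the regions marked at every age (red) and all other regions (grey). The red points lie below the grey ones under 150 bp (17.0% and 23.0% against 20.3% and 27.5%) and above them from 150 bp upwards (up to 47.6% against 37.4%).

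Between chromosomes the differences were smaller. The share of a chromosome's regions that were marked at every age was lowest on chromosome 14 at 6.08% (209 of 3439, 5.33 to 6.93) and highest on chromosome 18 at 9.98% (345 of 3458, 9.02 to 11.02). Chromosomes 12 (9.36%) and 16 (9.09%) came next to chromosome 18. The intervals of chromosomes 12 (8.39 to 10.4) and 16 (8.18 to 10.1) overlapped with that of chromosome 18, and none of the 3 overlapped with that of chromosome 14. The used part of chromosome 4 gave 8.06% (102 of 1265, 6.69 to 9.69). Chromosome 18 held 6.77 of the regions per Mb of span against 4.02 on chromosome 14, although the density of all regions was close on both (67.9 and 66.2 per Mb). On chromosome 18 the share was 14.6% in the first bin, 7.77% in the middle 8 bins and 19.1% in the last bin.

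The regions were widely spaced and unevenly so. The median distance between neighbours was 88.0 kb (quartiles 23.0 and 266.6 kb) and the mean 203 kb, against a median of 9.53 kb over all regions. The regions missing at 12 M had nearly the same median (85.6 kb) and a lower mean (132 kb). A lower mean follows from more regions on the same chromosomes, and the share of long distances also depends on that number. Both tails were heavier in the regions marked at every age. Of their 6231 distances, 14.7% were within 10 kb and 171 were over 1 Mb (2.74%), while 8.73% of the 9641 distances of the regions missing at 12 M were within 10 kb and 12 were over 1 Mb (0.124%).

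**Figure D5:**
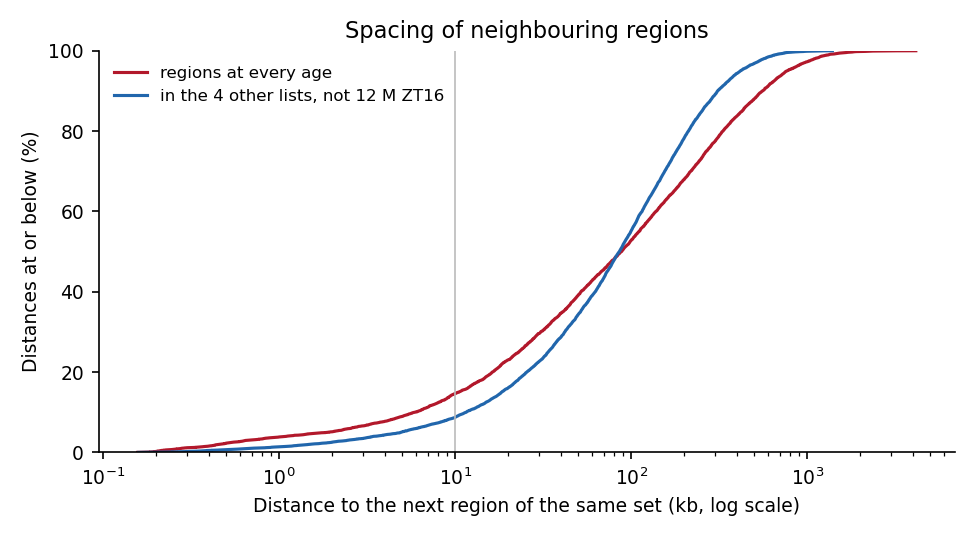
The cumulative share of distances between neighbouring regions of the same set (in %, vertical axis) is plotted against the distance in kb on a log scale for the regions marked at every age (red, median 88.0 kb) and those missing in 12 M ZT16 (blue, median 85.6 kb), with a vertical line at 10 kb. The curves cross near their medians, and the red one is the higher below and the lower above.

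Neighbours tended to be of the same kind. After a region marked at every age, the next region along the chromosome was also of this kind in 17.3% of cases (1080 of 6254, Wilson 95% interval 16.4 to 18.2), against 6.93% (6.75 to 7.12) after any other region. The pattern was present in both compartments, with 21.2% against 9.71% in the end bins and 15.5% against 6.11% in the middle 8 bins. For the regions missing at 12 M the same shares were 13.0% (12.3 to 13.7) and 11.8% (11.6 to 12.0).

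When neighbours within 10 kb were joined, 4629 regions stood alone and 1627 (26.01%) formed 712 runs. Joining was done for these regions only, so the 26.01% has no comparison set. Over all regions, which are more numerous, 51.4% of the distances between neighbours were within 10 kb. The runs held 2 regions in 573 cases, 3 in 95, 4 in 30, 5 in 10, 6 in 3 and 8 in 1. The run of 8 lay at chr21:8040500-8078283 and spanned 37784 bp, with 3 other regions between its members. Its regions were 108 to 391 bp long, with percentiles of 83.6 to 98.7 in 4 M ZT4, 82.9 to 98.7 in 4 M ZT16, 2.88 to 94.7 in 12 M ZT16, 47.9 to 96.1 in 20 M ZT4 and 94.3 to 99.3 in 20 M ZT16. All 8 thus ranked in the top 10% of the 20 M ZT16 list, while they covered nearly the whole range in 12 M ZT16. The 3 runs of 6 lay at chr10:36069164-36099905, chr25:33056309-33073618 and chr9:49493823-49526623, with 1 or 2 other regions between their members. The widest gaps between neighbours were 4.13 Mb on chromosome 25 (17173544 to 21305002), 3.21 Mb on chromosome 6 (18795056 to 22005646) and 2.80 Mb on chromosome 17 (27288098 to 30084547). These gaps were not free of H3K9me3 peaks, since they held 197, 229 and 132 regions not marked at every age, of which 36, 21 and 13 were regions missing at 12 M.

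The list of 12 M ZT4 was the only one in which the choice required no peak, and it held too few peaks to carry more than a count. Of its 29 peaks, 12 lay on regions marked at every age (41.4%, Wilson 95% interval 25.5 to 59.3). A further 15 lay on regions that met every condition but had a peak of 500 bp or more, 2 lay on an unplaced scaffold, and 0 of 29 lay on any other region, the regions missing at 12 M included. Over all 80950 regions on the chromosomes used and under the length limit, 0.0148% held a 12 M ZT4 peak, and all 12 of these were marked at every age. With 29 peaks, a count of 0 elsewhere says little about whether other regions carried the mark.

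The 12 regions with a 12 M ZT4 peak ranked high in the other lists. Their median percentile was 98.3 in 4 M ZT4, 98.7 in 4 M ZT16, 97.9 in 12 M ZT16, 98.9 in 20 M ZT4 and 97.5 in 20 M ZT16, and their median length was 248.5 bp. The lowest values of each list lay at chr17:51923222-51923471, with percentile 69.7 in 4 M ZT4, 69.5 in 4 M ZT16 and 51.0 in 20 M ZT16, and chr22:5587965-5588457, with 81.7 in 12 M ZT16 and 88.7 in 20 M ZT4. The 12 M ZT4 peak with the highest score among them, 45, lay in chr12:1519328-1519478, which together with chr5:862702-862948 was also among the 10 regions named above for their rank in all 5 lists. The others were chr1:37850822-37851052, chr1:51681549-51681961, chr12:42097114-42097600, chr22:8613038-8613232, chr24:8519937-8520121, chr24:32362162-32362283, chr5:60042245-60042504 and chr5:70195569-70196050. In the end bins lay 4 of the 12, close to the 32.9% of all regions marked at every age, so the count is not particular to these 12.

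The length limit removed 1232 regions that were in all 5 lists on the same chromosomes. Just inside it, chr15:45817650-45818148, chr6:14789097-14789595 and chr17:9604561-9605059 had longest peaks of 499, 499 and 498 bp. Just outside, chr13:48063902-48064402, chr14:49432367-49432866 and chr17:48180211-48180710 had longest peaks of 500 bp. The longest of the regions kept was chr20:50718484-50719055, at 572 bp made of shorter peaks, followed by chr21:2920806-2921328 at 523 bp and chr13:6996995-6997497 at 503 bp. The shortest were chr1:45642068-45642133 at 66 bp, chr14:26072039-26072105 at 67 bp and chr12:1764133-1764201 at 69 bp. These 3 short regions ranked higher in 12 M ZT16 (percentile 94.7, 99.0 and 96.8) than in 4 M ZT4 (60.3, 86.4 and 68.2), the reverse of the order of the medians over all regions marked at every age.

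The regions were set against the 904 loci on these chromosomes that the study lists for diurnal or age-related expression, 351 annotated and 553 unannotated, with 3 kb on each side. Positions of loci, but no expression values, were used. Of all 80950 regions, 1.95% lay at such a locus (1578), and of the regions marked at every age 2.01% did (126, Wilson 95% interval 1.69 to 2.39). The share for the regions missing at 12 M was also 2.01% (194 of 9666). These shares did not differ beyond counting error. Seen from the loci, 89 of 904 had a region marked at every age (9.85%, 8.07 to 12.0), 12.3% of the annotated and 8.32% of the unannotated ones, and 61.0% had a region of any kind. The annotated loci were longer (median 17724 bp against 1397 bp), and 71.5% of them had a region of any kind, against 54.2% of the unannotated. The part of locus length in these shares was not tested.

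Among the 351 annotated loci, 43 had at least 1 region marked at every age, 9 had 2 or more and 308 had none. Over all these loci, 61 of 797 regions were marked at every age, beside 7.73% of all regions. The loci below are named in order of their number of such regions, so the first counts are the top of a sorted list. They were not tested for a surplus. The igfn1.1 locus, named for a protein with immunoglobulin-like and fibronectin type III domains that in mammals is found in skeletal muscle, had 7 of its 18 regions marked at every age. Of the 7, 5 lay inside the locus and 2 just past its end, between chr6:46834557 and 46975652. Their percentiles ran from 45.9 to 98.5 in 4 M ZT4 and from 2.88 to 99.1 in 12 M ZT16. The region ranked highest in 12 M ZT16, chr6:46834557-46834696, was at percentile 87.1 in 20 M ZT16, where 5 of the other 6 ranked above it. At abhd2a, which encodes a serine hydrolase, 4 of 5 regions were marked at every age, among them chr7:13574600-13574929, the region with the widest range of percentile. At hlfa, a PAR bZIP transcription factor of the family that acts downstream of the circadian clock, 3 of 8 regions were of this kind, and 2 of the 3 ranked above percentile 99 in 4 M ZT4 and in 20 M ZT16.

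Genes of other functions had fewer. Both atp1a2a, a sodium pump subunit, and col1a2, a chain of type I collagen, had 2 of 7 regions marked at every age, and pcxb, a pyruvate carboxylase, had 2 of 33. The nuclear receptor gene nr1d4b, of the Rev-erb family that represses clock genes, had 2 of 18, chr11:2068347-2068526 and chr11:2070103-2070512, at percentile 99.5 and 99.8 of 4 M ZT4 and 56.5 and 49.6 of 12 M ZT16. Its relatives nr1d2a and nr1d4a had 1 each, of 6 and 15, while nr1d2b had 2 regions and none of this kind. Of other loci linked to the clock, rorab had 1 of 11. None was marked at every age at tefb (of 6 regions), per3 (5), rorcb (4), nfil3-2 (3), nfil3-6 (2) or bhlhe41 (1). A single such region was found at 34 annotated loci, of which a few are described as examples and not by rank. Examples were etv5b, an ETS transcription factor, and hells, a chromatin remodeller known for its part in DNA methylation of heterochromatin. Others were ifih1, a sensor of viral RNA, and angptl4, a secreted inhibitor of lipoprotein lipase. The region at hells, chr13:7921508-7921788, lay before the start of the locus and ranked at percentile 59.5 in 4 M ZT4 and 8.30 in 12 M ZT16.

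Of the 8 core clock loci looked at, per2, a repressor of the clock, was the only one with a region marked at every age, 1 of its 5 regions. That is 12.5% of the 8 loci, close to the 12.3% over all annotated loci, so the count is not particular to clock loci. That region, chr2:48452951-48453059, lay within 3 kb before the start of the locus and was 109 bp long. Its percentile was 85.1 in 4 M ZT4, 82.9 in 4 M ZT16, 63.1 in 12 M ZT16, 30.3 in 20 M ZT4 and 92.8 in 20 M ZT16. The activators clocka and arntl2 and the repressors cry1aa and cry2 had 8, 2, 1 and 3 regions, none of them marked at every age, and bhlhe40, nr1d1 and per1b had no region at all. Of the genes that the study discusses with its H3K9me3 results, 2 were looked at here. These loci, slc4a1a, an anion exchanger of red blood cells, and fbxo32, a muscle ubiquitin ligase, had 3 and 2 regions and none marked at every age. So few regions cannot be set apart from the 7.73% over all regions.

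A group of 23 loci, mostly of contractile proteins and creatine kinases, was chosen by the start of the gene name (myl, myh, tnn, act, tpm or ckm). Muscle genes with other names, such as mybpc1, mybpc2a and mybpha, were not in it. Of the 23 loci, 16 had a region and 4 had at least 1 marked at every age, 7 regions in all. These were tnnc2, the calcium-binding troponin of fast muscle, with 3 of 6, myl13, a myosin light chain, with 2 of 3, and the troponin genes tnni2a.1 and tnnt3b with 1 each. The 3 at tnnc2 were 105, 107 and 110 bp long and had percentiles above 90 in 4 M ZT4, but of 35.2, 2.88 and 89.8 in 12 M ZT16. The share of loci in this group with a region marked at every age was 17.4%, beside 12.3% over all annotated loci, a difference of few loci that was not tested.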

How the data were processed

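H3K9me3 ChIP-seq of zebrafish brain was analysed from 6 peak lists, 1 for each group of 3 libraries. Per the methods, the authors used Bowtie2 for mapping to GRCz10 and MACS2 for calling peaks on the BAM files of a group together. The deposited lists are BED files of 6 columns whose value is a score per peak, a whole number whose scale the authors do not name. The methods state a nominal sequencing depth, but the lists give no depth reached per library, so its effect on precision is unknown.

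Peaks overlapping by 1 bp or more were merged, which gave the same 90523 regions as bedtools 2.31.1. The code found all 400 members planted in 5000 simulated regions. Shares carry Wilson 95% intervals, which cover counting error only. With 1 list per group, no test between groups was made. Tables and intervals were made in Python 3.11.15 with pandas 2.3.3, numpy 2.4.6 and scipy 1.17.1, and plots with matplotlib 3.10.9. Locus positions came from the study's supplementary lists.

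The members and lists were chosen with earlier results of these data known. Regions named are the 10 with the highest lowest percentile, the 5 with the lowest highest percentile, the 5 with the widest range, those on a 12 M ZT4 peak, the 3 longest and shortest, the longest runs (those of 6 tie) and the 3 widest gaps, and the 3 on each side of the length limit. Genes named are loci with such a region (at most 30), 8 clock loci, slc4a1a, fbxo32 and muscle loci chosen by the start of the gene name. Other loci linked to the clock, such as per3 and tefb, were added afterwards for comparison with hlfa and the nr1d loci. Alternatives were scores of at least 20 or 30, a base common to all lists, a reciprocal overlap of 50%, merging within 1 kb, no length limit, other chromosomes and other flanks. For place they were chosen after seeing the data. Sequence and annotated features were not analysed here, since no GRCz10 genome was used.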

Additional observations from a re-analysis of the deposited data

Results flagged for a closer look

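The length of the peaks at the regions marked at every age differed between ZT4 and ZT16 in opposite directions at 4 M and 20 M. On the log2 scale, the ratio of the median lengths, ZT16 over ZT4, came to -0.0885 at 4 M (158 over 168 bp) and to 0.5314 at 20 M (172 over 119 bp). The difference between the ages was not tested, since each group has 1 list. The lists that gave the longer peaks were also those with more peaks, 63158 (ZT4) against 51003 (ZT16) for the youngest fish, and 79677 (ZT16) against 16185 (ZT4) for the oldest, and the part of depth in the result was not tested.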

How the results depend on the processing

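Over 7 results, 58 alternative values were computed, of which 30 stayed close to the reported value (counts within 1.5 times, other values inside their 95% interval). The 30 include every value for a base common to all lists, which kept the same 6256 regions. With a score of at least 20 in every list, the set numbered 2086 regions, with a median length of 147 bp, a median spacing of 315 kb, a median lowest percentile of 40.4, 4.09% of loci with a region and 31.2% in the end bins. With a score of at least 30 the values were 343 regions, 143 bp, 2272 kb, 50.8, 0.553% and 29.8%. The limit was applied to the 12 M ZT4 list as well, and 3 of the peaks left in it lay on these regions. That count therefore also reflects 12 M ZT4 peaks removed by the limit. A reciprocal overlap of 50% gave 158 bp, 125 kb and a percentile of 42.4. Merging within 1 kb gave 231 bp, 98.6 kb and 40.2. Without the length limit the values were 216 bp, 55.5 kb, a percentile of 40.2, 35.3% in the end bins and 27 of the 12 M ZT4 peaks. With all chromosomes and scaffolds they were 183 bp and 81.3 kb. Loci with a region were 6.75% without a flank and 15.7% with 10 kb. The cause of these shifts was not tested, beyond fewer or more regions by construction. In each alternative the share in the end bins exceeded that of all regions, which lay between 22.1% and 23.7%. The share always used the same 24 chromosomes, so leaving out chromosome 4 or adding scaffolds could not change it. The common base, with the same regions, did not change it either. No paired analysis was possible because each group has 1 pooled list without replicate values, and no replicate could be left out for the same reason. The depth reached by each library is not in the lists, so the absence of a peak call is no evidence that the region lacked the mark.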
